A study of Caenorhabditis elegans with 2 samples.

Results

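The genes described here encode the small secreted signalling peptides of the nematode Caenorhabditis elegans. They were chosen by name from the nuclear protein-coding genes of the annotation. Symbols had to begin with flp, nlp or ins and end in a number, and pdf-1, pdf-2, ntc-1, snet-1 and daf-28 were added. The rule found 145 of 19973 genes: 31 flp genes, 71 nlp genes, 39 insulin-like genes with daf-28 among them, and the 4 other peptide genes. The data are positions of the sine oculis type homeodomain protein CEH-32 from chromatin immunoprecipitation and sequencing. Whole hermaphrodites of strain OP516 carried the insertion wgIs516, which expresses CEH-32 with a GFP-FLAG tag at its C terminus, and the mutation unc-119(tm4063). They were collected at the L4 stage, 52 hours after synchronisation as starved L1 larvae from bleached animals. There was 1 group of 2 replicates from separate biosamples of this line and no second condition, so the data allow no comparison between conditions.

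Neuropeptide precursors are cut and often amidated inside dense core vesicles, and the products act on receptors of other cells after release. The flp genes encode FMRFamide-like peptides, the nlp genes a mixed class of other peptides, and the ins genes ligands of the insulin receptor DAF-2, some of which activate it and some of which oppose it. Most of these genes are active in particular neurons, and several also in the intestine or epidermis. A peak list from whole animals does not show the cell in which a protein was bound, and a site used in few cells cannot be told apart from one bound weakly in many. The files hold no expression values, so the tissue could not be checked against marker genes.

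The authors deposited 4 peak lists on build ce11 that were used here. The optimal list holds 412 peaks that passed a reproducibility threshold (IDR), by its title. Not all of them had a summit within 100 bp in both replicate lists. Relaxed lists hold peaks together with background, by their titles, and had 10485 peaks from pooled replicates, 14069 from replicate 1 and 14710 from replicate 2. The numbers of reads are not in these lists, so depth is unknown. Each peak has a signal from the authors' peak caller, whose scale differs between lists. The lowest signal was 81.6 in the optimal list, 27.1 in the pooled list, 12.7 for replicate 1 and 16.2 for replicate 2. A gene was linked to a peak when the summit lay in its promoter window, which ran from 1000 bp before to 500 bp after any of its transcript starts.

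The strongest peak at a peptide gene lay upstream of ins-39, and its whole sequence is shown because no other peptide gene was linked to the optimal list. Windows of 101 bases around the pooled summit follow for the other 4 genes whose summit recurred within 100 bp in both replicates. All are written 5′ to 3′ along the strand of the gene, from the WBcel235 genome, which is the same assembly as ce11. Capitals mark a match, on either strand, to any of the 4 hexamers searched: GAGAGA, the sine oculis core TGATAC, the homeodomain core TAATTA and the GATA-type TGATAA.

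ins-39, whole optimal peak, chrX:1344970-1345141, minus strand: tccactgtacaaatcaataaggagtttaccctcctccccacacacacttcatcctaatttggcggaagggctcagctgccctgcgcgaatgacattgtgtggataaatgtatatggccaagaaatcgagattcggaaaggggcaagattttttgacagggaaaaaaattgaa
nlp-45, chrX:2338500-2338600, minus strand: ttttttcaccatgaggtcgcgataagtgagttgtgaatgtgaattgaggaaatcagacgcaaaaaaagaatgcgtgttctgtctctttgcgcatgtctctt
nlp-49, chrX:5903899-5903999, plus strand: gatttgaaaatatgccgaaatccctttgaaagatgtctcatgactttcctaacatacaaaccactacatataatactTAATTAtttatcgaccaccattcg
daf-28, chrV:19815471-19815571, plus strand: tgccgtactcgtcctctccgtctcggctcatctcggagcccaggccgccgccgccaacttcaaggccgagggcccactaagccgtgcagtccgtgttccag
ins-11, chrII:5556952-5557052, plus strand: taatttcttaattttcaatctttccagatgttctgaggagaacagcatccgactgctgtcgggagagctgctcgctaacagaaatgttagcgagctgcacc

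Entries of the CEH-32 peak lists were present at a minority of peptide genes. As with promoter peaks in general, most were seen in a single replicate. The relaxed lists include background, so a link to them is not by itself evidence of binding. The authors' −log10 q in the pooled list was 2.18 at the upstream ins-39 peak, 2.01 at nlp-45 and 1.43 at nlp-33. It was 1.14 at a second ins-39 peak, 0.818 at nlp-49, 0.815 at daf-28 and 0.484 at ins-11. At the other links it ran from 0.222 down to 0.0224. Of the 145 genes, 1 was linked to an optimal peak, or 0.690% (Wilson 95% interval 0.122% to 3.80%), beside 1.41% of all genes. In the pooled relaxed list 17 were linked, or 11.7% (7.45% to 18.0%), beside 20.1% of all genes. In the replicates alone 31 were linked in replicate 1, or 21.4%, beside 25.3%, and 26 in replicate 2, or 17.9%, beside 25.5%. A peak found in both replicates with summits within 100 bp was present at 5 genes, or 3.45% (1.48% to 7.82%), beside 6.51%. The members' share was below that of all genes in each of these lists, and the ratio between them was closest to even in replicate 1. No test of the gap was made, since the genes were chosen with results of these data known. The intervals cover counting error over genes only.

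**Figure D1:**
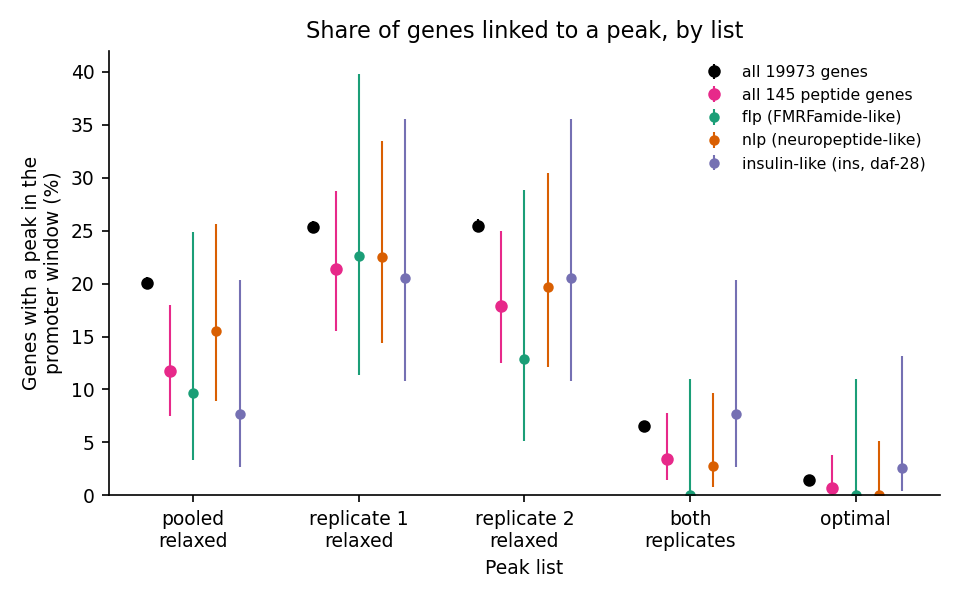
Share of genes with a peak summit in the promoter window (y axis, percent) in each peak list (x axis), for all 19973 genes, the 145 peptide genes and their 3 larger families. Points are shares and bars are Wilson 95% intervals. The peptide genes together lie at 11.7% in the pooled list, where all genes lie at 20.1%, and the interval of each family is wide.

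The pooled share of peptide genes stayed below that of all genes when chromosome or window length was matched, and the gap was smaller among genes with a single start. With the members' mix of chromosomes, all genes would have been linked at 20.6%. X held 25.5% of the peptide genes and 13.7% of all genes. On X 6 of 37 peptide genes were linked, or 16.2%, beside 22.3% of all genes on X, and on the autosomes 11 of 108, or 10.2%, beside 19.7%. Chromosome I had none of its 19 peptide genes linked in the pooled list, beside 24.5% of all its genes. Replicate 1 alone had 5 of the 19 linked, or 26.3%, beside 29.6%, and replicate 2 had 3, or 15.8%, beside 29.6%. Chromosome V went the other way, with 5 of 24 peptide genes linked, or 20.8% (9.24% to 40.5%), beside 14.6% of all its genes. Its members' share was also the higher in each replicate alone, at 29.2% beside 20.3% and 25.0% beside 18.5%. For peaks shared by both replicates, chromosome V had 4.17% beside 4.19%. Per 100 kb of promoter window there were 9.35 pooled summits at peptide genes and 13.5 at all genes, with 15.7 and 17.7 in replicate 1 and 13.6 and 17.8 in replicate 2. Among genes with a single annotated start, 12.2% of 115 peptide genes were linked, beside 15.9% of all such genes.

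Peptide genes were further from other genes in the median, and 15 of the 17 linked members had no other start within 2000 bp. The median distance from a start to the nearest start of another gene was 2597 bp for peptide genes and 1978 bp for all genes. Among genes with no other start within 2000 bp, 15 of 93 peptide genes were linked in the pooled list, or 16.1%, beside 18.8% of all such genes. Among the others, 2 of 52 were linked, nlp-33 and nlp-60, or 3.85%, beside 21.3%. A peak in both replicates was present at 5 of the 93, or 5.38%, beside 5.31% of all such genes, so these shares were alike. It was present at 0 of the 52, beside 7.69%. The split was not made for each replicate alone, where others of the 52 were linked. Among these were flp-1, nlp-4 and nlp-41 in replicate 1 and ins-17 and nlp-71 in replicate 2. The low pooled share is therefore not read as holding in each replicate. Of those 52, 20 had another peptide gene as the nearest, as in the tandem pairs ins-4 and ins-5 or nlp-27 and nlp-28. None of the 20 was linked in the pooled list, beside 21.3% of all genes with another start within 2000 bp. Some of the 20 were linked in a replicate list. These were ins-8, ins-19, ins-31 and nlp-31 in replicate 1, and ins-22, ins-30, nlp-22 and nlp-23 in replicate 2. When each peak was instead given to its nearest start within 5 kb, 41 peptide genes were linked, or 28.3%, beside 31.2% of all genes.

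The insulin-like family held the strongest peak. Of its 39 genes, 3 were linked in the pooled list (7.69%, beside 20.1% of all genes). These same 3, ins-39, daf-28 and ins-11, had a peak in both replicates, and there 7.69% was near, and above, the 6.51% of all genes. The gene ins-39 (WBGene00017668, X, 1343758 to 1344421, minus strand) encodes an insulin-like peptide. Its optimal peak reached 229 in the pooled list, with 102 found by replicate 1 and 129 by replicate 2. It ranked 48 of 10485, 62 of 14069 and 41 of 14710 in these lists, so it was near the top of each. Its summit was 633 bp upstream of the start, between genes, with the next start, that of ttr-37, 7879 bp away and no noncoding gene within 24524 bp. The replicate summits were 19 bp apart. In the pooled list the peak was 172 bp wide, while all 21 other member links were to peaks 420 bp wide. In the replicate lists the same peak was 430 bp wide in replicate 1 and 420 bp wide in replicate 2. With windows from only 500 bp upstream, this peak fell outside and no peptide gene was linked to the optimal list.

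A second pooled peak at ins-39 lay in its coding exon, 195 bp downstream of the start, with a signal of 53.5. Replicate 2 had a summit there with a signal of 34.2, while replicate 1 had none within 100 bp. The relaxed list of replicate 1 held another summit in an intron of the gene, 373 bp downstream, with a signal of 18.8. The upstream peak was therefore the only one at ins-39 that both replicates held at the same place.

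The gene daf-28 (WBGene00000920, V, 19815133 to 19816454) encodes an insulin-like peptide that promotes reproductive growth over dauer arrest. Its pooled signal was 49.0, against 20.3 for replicate 1 and 29.1 for replicate 2, at ranks 1480, 3335 and 2039. The summit was 116 bp downstream of a start, in a coding exon, within the window printed above. That window has 67.3% G and C, against a median of 38.6% over all promoter peaks. Whether base composition bears on this signal was not tested.

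The gene ins-11 (WBGene00002094, II, 5556731 to 5557173) encodes a further insulin-like peptide. Replicate 1 gave its peak a signal of 16.2 and replicate 2 one of 28.4, with 43.1 when pooled. The summit lay in a coding exon 271 bp downstream of the start, and the replicate summits were 86 bp apart, so this match was lost when summits had to be within 50 bp. Of all 39 insulin-like genes, 27 had no peak in any relaxed list, or 69.2%, beside 60.7% of all genes. A further 9 had one in a replicate list only. The gene ins-27 had a peak in each replicate, at 145 bp downstream with a signal of 20.6 in replicate 1 and at 257 bp upstream with 16.3 in replicate 2, but not at the same place.

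**Figure D2:**
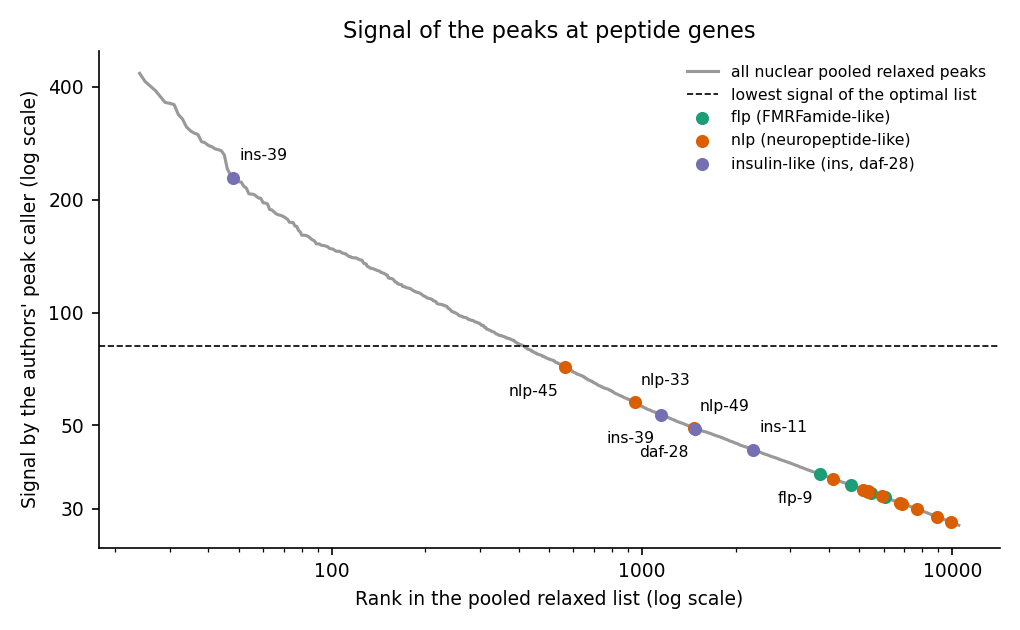
Signal given by the authors' peak caller (y axis, log scale) against rank in the pooled relaxed list (x axis, log scale) for all nuclear peaks (grey line) and for the 22 links at peptide genes (points, coloured by family). The dashed line marks 81.6, the lowest signal of the optimal list. The upstream peak of ins-39 at rank 48 lies above the line and the next, nlp-45 at rank 563, below it.

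The nlp family had 11 of 71 genes linked in the pooled list (15.5%, beside 20.1% of all genes) and 2 with a peak in both replicates (2.82%, beside 6.51%). The gene nlp-45 (WBGene00020136, X, 2337600 to 2338310, minus strand) encodes a neuropeptide precursor and came closest to the optimal list. The pooled signal was 71.7, with 41.5 for replicate 1 and 31.8 for replicate 2, at ranks 563, 447 and 1426. The summit was 240 bp upstream of the start and 2866 bp from the next start, that of T01B6.1, in an intron of that gene. The replicate summits were 3 bp apart, the closest match among the 5 genes.

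The gene nlp-49 (WBGene00019160, X, 5904653 to 5905345), whose peptides act in arousal and locomotion, had a pooled signal of 49.2, with 21.0 in replicate 1 and 29.5 in replicate 2. Its summit lay between genes, 704 bp upstream of the start, and the replicate summits were 69 bp apart. The summit window holds TAATTA near its 3′ end, as printed above. With nlp-45 and ins-39, this made 3 of the 5 genes with a peak in both replicates X-linked, or 8.11% of the 37 peptide genes on X, beside 7.87% of all genes on X.

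The gene nlp-33 (WBGene00003771, V, 11147346 to 11147737) encodes a peptide of a class that the epidermis makes in response to infection. Its pooled signal was 57.6, at rank 946, and the summit lay in the 3′ untranslated region of this short gene, 326 bp downstream of the start. Replicate 2 had a summit 308 bp downstream with a signal of 33.8, and replicate 1 had one 462 bp downstream with a signal of 23.2. These were over 100 bp apart, so the gene counted as shared only when summits could be up to 200 bp apart or peaks had only to overlap. It was the only pooled link with TGATAC within 50 bp of the summit, in this stretch of 30 bases.

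nlp-33, chrV:11147624-11147653, plus strand: aagtaaatgcaaTGATACctcaacgatctt

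The remaining nlp links had signals from 27.7 to 36.1 in the pooled list, close to its lowest value of 27.1. The strongest were at nlp-14, which has a role in sleep, with 36.1 in an intron 380 bp downstream, and nlp-55 with 33.7 at 788 bp upstream, inside the noncoding RNA gene F14F11.4. Replicate 1 held the nlp-14 summit with a signal of 19.1 and replicate 2 did not. Replicate 2 held the nlp-55 summit with a signal of 31.9, at rank 1414, and replicate 1 did not. The gene nlp-25 had 3 pooled summits, between 447 bp upstream and 452 bp downstream, and the 2 outer ones had a match in replicate 2. The other linked genes were nlp-76, nlp-66, nlp-69, nlp-60 and nlp-36, of which nlp-66 had a pair of summits and the summit of nlp-36 had no match in either replicate.

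The flp family had 3 of 31 genes linked in the pooled list (9.68%, beside 20.1% of all genes). None had a peak in both replicates at the same place (0 of 31 genes, so that a share up to 9.68% is allowed, beside 6.51%). The gene flp-9 (WBGene00001452, IV, 12754558 to 12757570, minus strand) had a signal of 37.1 in the pooled list and 15.8 in replicate 1, with no match in replicate 2. Its summit was 619 bp upstream, and the window is the only member window with the GATA-type hexamer, shown here as its complement TTATCA along the strand of the gene.

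flp-9, chrIV:12758134-12758163, minus strand: cgatttttccatTTATCAaatcatgaaaaa

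The gene flp-34, whose peptides are related to neuropeptide Y and act in olfactory learning, had a summit at each of its annotated starts. The stronger, 136 bp downstream of a start, had 34.6 in the pooled list and 14.8 in replicate 1, with no match in replicate 2. The weaker, 660 bp upstream of the other start, had 32.1 in the pooled list and 29.5 in replicate 2, with no match in replicate 1. The gene flp-14 had 33.1 at 818 bp upstream, matched in replicate 2 only with 21.5. No flp summit thus recurred at the same place.

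The pigment-dispersing factor genes pdf-1 and pdf-2, the vasopressin- and oxytocin-related gene ntc-1 and snet-1, a regulator of pheromone responses, had no peak in their windows in any of the 4 lists. The nearest pooled summits were 1427 bp from ntc-1, 1589 bp from pdf-2, 3129 bp from pdf-1 and 18249 bp from snet-1. With 4 genes, a lower share than that of all genes was not detectable.

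Over all 145 genes, 49 had a peak in at least 1 of the 3 relaxed lists, or 33.8%, beside 39.3% of all genes, and 96 had none. Of the 49, 8 were linked in all 3 relaxed lists, 19 in replicate 1 alone and 12 in replicate 2 alone. This split was not set beside that of all genes, so it is not read as particular to the peptide genes. Members seen in replicate 1 alone included flp-6 with a signal of 20.7, flp-32 with 19.8 and nlp-31 with 19.2. Those in replicate 2 alone included ins-17 with 28.9, 64 bp upstream of its start, and nlp-29 with 26.0, 238 bp upstream. The median signal was 16.2 over the member peaks of replicate 1 and 16.7 over all its promoter peaks, and 22.6 and 21.0 in replicate 2.

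**Figure D3:**
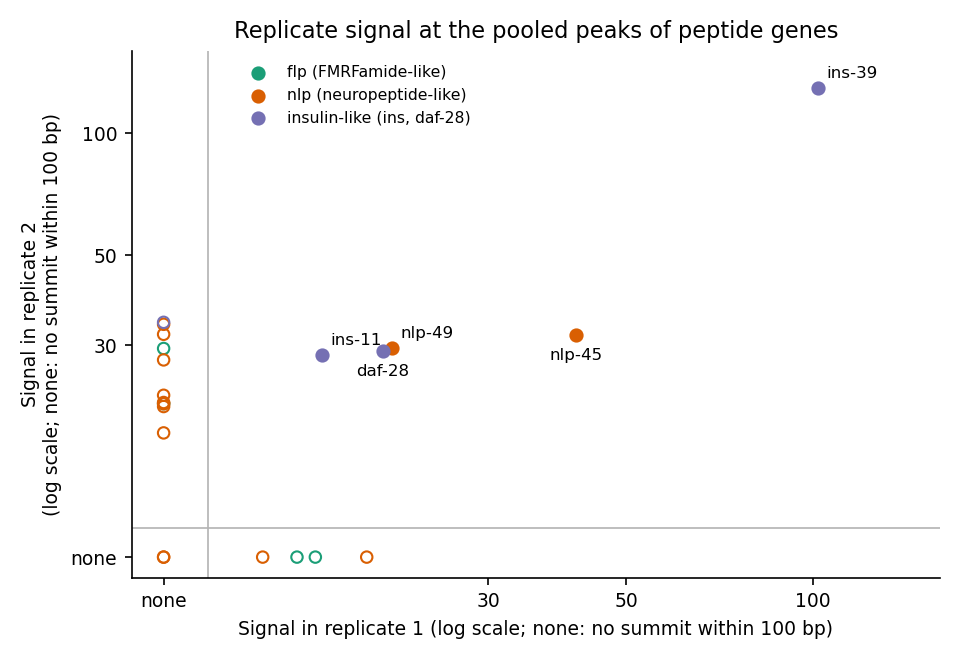
Signal in replicate 1 (x axis, log scale) and replicate 2 (y axis, log scale) at the 22 pooled links of peptide genes, coloured by family. Filled points had a summit within 100 bp in both replicates, and open points are placed at "none" for a replicate without one. The 5 filled points are ins-39, nlp-45, nlp-49, daf-28 and ins-11, with ins-39 far above the others in both replicates.

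Replicate 2 matched more of the pooled peaks than replicate 1, at the 22 links of peptide genes and over all promoter peaks. At the peptide genes a summit within 100 bp was found for 9 links in replicate 1 and 16 in replicate 2, for 5 in both (22.7%), for 15 in exactly 1 and for 2 in neither (9.09%). Of all 4121 pooled peaks in promoter windows, 2148 had a match in replicate 1 and 2604 in replicate 2, with 28.5% matched in both, 2406 peaks in exactly 1 and 13.2% in neither. The median signal was 33.5 over the member peaks and 34.7 over all promoter peaks, and 11 of the 22 ranked above the median of the list, beside 54.9%. The values of the member peaks were thus near those of promoter peaks in general, with ins-39 as the exception at the top.

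More of the links at peptide genes than of all links lay downstream of the start. Of the 22 pooled links, 13 were downstream of the start, or 59.1%, beside 28.6% of all 4819 links. In replicate 1 it was 21 of 37, or 56.8%, beside 30.4%, and in replicate 2 13 of 32, or 40.6%, beside 31.3%. Upstream summits were present at 9 peptide genes, or 6.21%, beside 15.2% of all genes with pooled replicates, at 10.3% beside 18.9% in replicate 1 and at 11.7% beside 18.8% in replicate 2. Summits at or downstream of the start were present at 8.28% beside 6.49% with pooled replicates, at 13.1% beside 8.80% in replicate 1 and at 8.97% beside 9.24% in replicate 2. The members' share was thus below that of all genes upstream of the start in all 3 lists, and at or downstream of it only in replicate 2, by little. This comparison was chosen after its values were seen and was not tested.

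**Figure D4:**
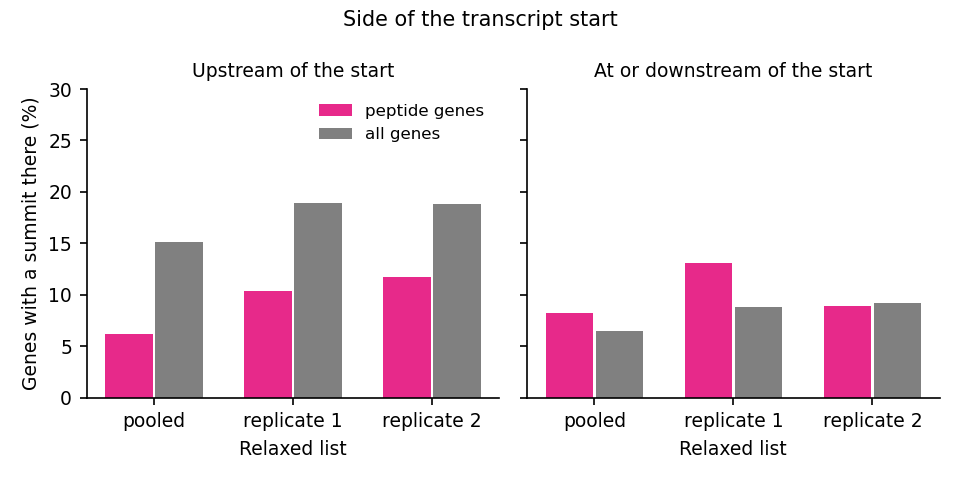
Share of genes (y axis, percent) with a summit in the promoter window upstream of a start (left) or at or downstream of it (right), in the 3 relaxed lists (x axis), for the 145 peptide genes and all genes. Upstream of the start the peptide genes lie at 6.21% in the pooled list and all genes at 15.2%, while downstream they lie at 8.28% and 6.49%.

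Of the 22 pooled links, 5 had their summit in a coding exon of the member, 5 in an intron of it, 3 in its 5′ and 1 in its 3′ untranslated region. A further 6 lay between protein-coding genes and 2 inside another gene. Any coding exon held 27.3% of the member links and 20.5% of all links. The member was the nearest linked start at each of the 22, beside 85.5% of all links. It was also the nearest of all protein-coding starts at each of them, a measure not taken for all links. Of the 17 linked members, 15 had no other start within 2000 bp, as given above.

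**Figure D5:**
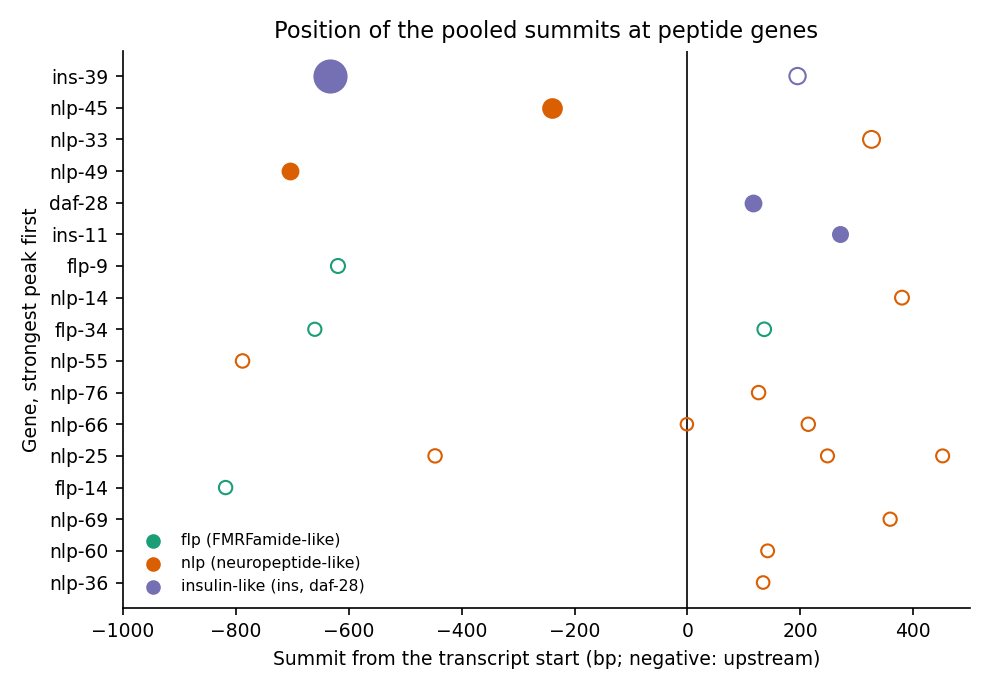
Distance of each pooled summit from the transcript start (x axis, bp, negative upstream) at the 17 linked peptide genes (y axis, ordered by their strongest peak). Point area grows with the pooled signal and filled points were matched in both replicates. Of the 22 summits, 13 lie downstream of the start, and the strongest, at ins-39, lies 633 bp upstream.

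None of the 4 hexamers was frequent at the member peaks. Each was within 50 bp of the summit at 1 of the 22 links, or 4.55% (Wilson 95% interval 0.807% to 21.8%): TGATAC at nlp-33, TAATTA at nlp-49, TGATAA at flp-9 and GAGAGA at nlp-25. Over all 4121 promoter peaks the shares were 2.86% for TGATAC, 6.77% for TAATTA, 6.62% for TGATAA and 10.5% for GAGAGA, all within that interval. The ins-39 peak holds none of them. In the 300 bases from 250 before to 50 after the most upstream start, TGATAC was in 5 of the 145 promoters of peptide genes, or 3.45%, beside 9.54% of all promoters. TAATTA was in 8.97% beside 15.5%, TGATAA in 25.5% beside 30.2% and GAGAGA in 19.3% beside 21.8%. The promoters of peptide genes had a mean of 37.1% G and C, and those of all genes 34.8%.

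The genes that process, release and sense these peptides were described with the same windows. Chromosome, window length and number of starts were not matched for these lists. Of 21 genes for processing and release, 11 were linked in the pooled list (52.4%, beside 20.1% of all genes), 4 had a peak in both replicates (19.0%, beside 6.51%) and 1, unc-108, was linked to an optimal peak (4.76%, beside 1.41%). The gene unc-108 encodes the small GTPase Rab2, which acts in dense core vesicle formation. Its optimal peak had 86.3 in the optimal list and 52.7 in replicate 2, with no summit within 100 bp in replicate 1. A further unc-108 summit, 511 bp upstream of another start, had 72.4 when pooled, 50.3 for replicate 1 and 25.0 for replicate 2. The genes with a pooled peak matched in both replicates also were pgal-1, for a peptide-amidating lyase, with 58.0 when pooled, 18.0 for replicate 1 and 38.0 for replicate 2, and unc-31, for the vesicle priming factor CAPS, with 55.3, 25.8 and 32.9. The gene sbt-1, for the chaperone of a proprotein convertase, had 35.4 when pooled, 21.0 for replicate 1 and 16.2 for replicate 2.

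Of 104 peptide receptor genes, 15 were linked in the pooled list (14.4%, beside 20.1% of all genes) and 2 in both replicates (1.92%, beside 6.51%). None was linked to an optimal peak (0 of 104 genes, so that up to 2.88% is allowed, beside 1.41%). The strongest was npr-23, with 76.6 when pooled, 32.3 for replicate 1 and 46.7 for replicate 2, 136 bp upstream of the start and inside an intron of vps-4. The gene frpr-15 had 31.1 in the pooled list at 314 bp downstream, with 14.9 in replicate 1 and 16.4 in replicate 2. At sprr-2, with 38.5 in the pooled list, each replicate had a summit within 100 bp of the pooled one, but the replicate summits were further than 100 bp from each other, so it is not among the 2. Of 15 genes of the insulin receptor pathway, 5 were linked in the pooled list, or 33.3% (15.2% to 58.3%), beside 20.1% of all genes. In both replicates 2 were linked, or 13.3% (3.74% to 37.9%), beside 6.51%. Both intervals cover the share of all genes. None was linked to an optimal peak (0 of 15 genes, so that up to 20.0% is allowed, beside 1.41%). The 2 were daf-16 and skn-1. The first, the FOXO factor that insulin signalling holds out of the nucleus, had 48.7 when pooled, 31.0 for replicate 1 and 19.1 for replicate 2. Its summit lay inside the noncoding RNA gene H36N01.1. The second, an Nrf-type factor, had 48.9, 29.4 and 21.8.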

How the data were processed

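The samples were whole L4 worms carrying tagged CEH-32, in 2 biological replicates of 1 group. Chromatin was sonicated and precipitated, per the labels, whose description names an anti-GFP antibody while their antibody field reads ceh-32. The deposited files are narrowPeak lists, and those on build ce11 were used. The ce10 lists were not used here. The deposited signal column comes from the authors' peak caller, and its scaling is not stated. The deposited q-value column is −log10 of q and was read only as a description. Aligner, caller and thresholds are likewise not given in the sources used here. Replicates were pooled by the authors for the optimal and the pooled relaxed lists. The lists give no read counts, so depth is unknown and no precision per peak can be given.

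Summit positions were compared with all transcript starts of nuclear protein-coding genes of Ensembl release 115, and sequences were read from the RefSeq genome of the same assembly. Peak ends and chromosome lengths were checked against it. Tables were made in Python 3.11.15 with pandas 2.3.3 and numpy 2.4.6, figures with matplotlib 3.10.9, and intervals with SciPy 1.17.1. The linking was checked on simulated data with planted summits. Wilson 95% intervals and the floor of 3 counts cover counting error only. Peaks of 2 genes may be the same peak where windows overlap. Members, lists and hexamers were chosen with earlier results of these data known. The 3 pathway lists are for peptide processing and release, peptide receptors and the insulin receptor pathway, and 1 symbol of the first, rab-2, had no match in the annotation.

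The rule for named genes took every gene linked to an optimal peak, every gene with a pooled summit matched in both replicates, the 10 with the strongest pooled peaks, the 5 just below the optimal list, and the 5 genes added by name. Of the pathway lists it took genes with an optimal peak or a pooled peak matched in both replicates. Other genes were named after their values were seen, as were the comparisons by neighbouring start and by side of the start. No test was made, since there is 1 group. Alternatives were the promoter window, nearest-start linking, linking by overlap of at least 1 bp, the peaks above the median signal of each list, each replicate alone, the distance between summits, and the motif window.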

Additional observations from a re-analysis of the deposited data

How the results depend on the processing

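The 1 peptide gene linked to an optimal peak became 0 with windows from 500 bp upstream and 3 with linking to the nearest start within 5 kb, where nlp-40 and ins-13 joined ins-39. The share of peptide genes was then 2.07%, above the 1.70% of all genes, and with the optimal peaks above their median signal it was 0.690% beside 0.666%, so the order against all genes turns for this list. Equally many of the strongest peaks of either replicate alone gave 1 gene each. The 17 genes of the pooled list became 41 with nearest-start linking and 10 with the peaks above the list's median signal, and 26 to 31 with a replicate left out, which takes the longer relaxed list of the other replicate. The share of peptide genes was below that of all genes under each of these pooled settings. The 5 genes with a peak in both replicates became 3 with summits within 50 bp (daf-28, ins-39 and nlp-45). They became 3 with windows from 500 bp upstream (daf-28, ins-11 and nlp-45) and 8 with overlapping peaks. The share of all genes moved the same way under each of these settings and stayed above that of peptide genes. With summits within 50 bp it was 4.24%, beside 2.07% of peptide genes. With windows from 500 bp upstream it was 4.98%, beside 2.07% of peptide genes. The shares of links with GAGAGA or TGATAC were each 9.09% within 100 bp of the summit. Over all promoter peaks they were 19.2% for GAGAGA and 5.46% for TGATAC. No paired analysis was possible because the study has 1 group and peak lists give no value to test. Peak lists hold no depth, so a gene without a peak may have binding below the authors' thresholds.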

Other observations

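Beyond the promoter windows, 6 peptide genes had an optimal summit within 5 kb of a start, ins-39 among them, and the median distance from a peptide gene to the nearest optimal summit was 99.9 kb. Neither value was set beside all genes, so neither is read as particular to the peptide genes. With each optimal peak given to its nearest start within 5 kb, 2.07% of peptide genes were linked, beside 1.70% of all genes. The 5 genes besides ins-39 had their summits downstream of the start. At ins-13 the summits lay 1105 and 1304 bp downstream, with optimal signals of 215 and 279. The first was matched in replicate 1 with 107 and in replicate 2 with 126, and lay 52 bp from the spliced leader gene sls-2.2. The second was matched in replicate 1 only, with 172, and lay 21 bp from the noncoding gene C17C3.23. At ins-17 the optimal summit was 1907 bp downstream, with 188 in the optimal list, 95 in replicate 1 and 94.4 in replicate 2, and lay 253 bp from the start of rps-1, a ribosomal protein gene. At ins-37 it was 1524 bp downstream with 147, 60 bp from a noncoding gene, and at nlp-4 it was 846 bp downstream with 105, 59 bp from a small nucleolar RNA gene. At nlp-40, whose peptide times the defecation rhythm from the intestine, the summit was 1887 bp downstream with 160 in the optimal list, 59.0 in replicate 1 and 101 in replicate 2. Most of these strong summits thus lay near a noncoding gene or another coding start, and whether they bear on the peptide genes was not tested.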
